A study of Mus musculus with 20 samples.

Results

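The vacuolar ATPase, or V-ATPase, is the proton pump that acidifies lysosomes, endosomes and phagosomes. The report concerns 10 of its subunit genes in mouse microglia: Atp6v0d2, Atp6v0d1, Atp6v0a1, Atp6v0b, Atp6v0c, Atp6v1a, Atp6v1b2, Atp6v1c1, Atp6v1e1 and Atp6v1h. They were chosen by name with earlier results of these arrays in view, so that Atp6v0d2, whose group differences were then already known, could be set against its paralogue Atp6v0d1 and against core subunits. A gene was read from the probe set annotated to its symbol alone, and from the probe set with the highest mean where there were several. Of the 10 genes, 9 had such a probe set, each of them exactly 1, among 19751 genes measured in this way. Atp6v0c was not analysed here, because no probe set was annotated to it alone. All 9 measured genes passed the filter on low values, which left 12728 genes. A gene passed with at least 4 arrays above their own 40th percentile, and Atp6v0d2 passed through the 5XFAD group alone.

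Microglia, the resident macrophages of the brain, were sorted by flow cytometry from mice aged 8.5 months, and their RNA was hybridised to one-colour arrays. The animals were littermates of 4 genotypes: WT (4 arrays), Trem2-/- (4 arrays), 5XFAD (5 arrays) and Trem2-/-5XFAD (6 arrays). Trem2 encodes a lipid-sensing receptor of myeloid cells, and 5XFAD mice are a transgenic Alzheimer model that forms amyloid plaques in the brain. No treatment is given in the labels, and the sort gate, the strain background, the making of the Trem2 allele and any pooling of mice were not given in the sources used here. What the groups compare is how the amyloid model and the loss of Trem2, alone and together, affected microglial gene expression. For 1 further array the title names WT and the genotype label Trem2-/-, and it entered no group.

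The targeted gene followed the labels. Trem2 lay between 11.14 and 11.80 on the log2 scale in the 9 WT and 5XFAD arrays and between 6.75 and 7.60 in the 10 arrays labelled Trem2-/- or Trem2-/-5XFAD. The array with conflicting labels had 11.08, near the WT arrays and far above those labelled Trem2-/-. Log2 values correlated between arrays with r from 0.967 to 0.992. The microglial marker list (9 of 10 genes measured, among them P2ry12 and Tmem119) had a mean log2 value of 10.77 to 11.58 in every array, and none of its genes was below the 40th percentile, whereas 5 to 6 of 8 neuronal markers were below it in every array of a group. Arrays 1 and 2 of both WT and 5XFAD were rich in salivary gland transcripts (summed intensity 1621 to 2951). Trem2-/- 3 had 865 and the others 59 to 258, and it was kept when those 4 arrays were left out. Neutrophil transcripts were highest in Trem2-/- 1 and Trem2-/-5XFAD 1. Xist signal was present in 3 of 4 WT, 3 of 4 Trem2-/-, 1 of 5 5XFAD and 0 of 6 Trem2-/-5XFAD arrays, so the sexes were not evenly spread over the genotypes.

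The V-ATPase has a membrane sector, V0, which carries protons through a rotating ring of proteolipid subunits, and a cytosolic sector, V1, which hydrolyses ATP and drives that rotation. The pump can be switched off by releasing V1 from V0. Several subunits come in isoforms encoded by separate genes. Of the d subunit, which couples the central stalk of V1 to the ring, the d1 form is found in nearly all cells, while the d2 form is known from osteoclasts, macrophages, dendritic cells and kidney. In mice Atp6v0d2 is also known for a part in the fusion of osteoclast precursors. Many lysosomal genes, V-ATPase genes among them, carry the CLEAR element, which is bound by TFEB and its relatives and has the E-box CACGTG as its core.

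RefSeq promoter sequences of the GRCm38.p6 build were at hand for 6 of the 10 genes: Atp6v0d1, Atp6v0a1, Atp6v0b, Atp6v0c, Atp6v1a and Atp6v1e1. Each window ran from 250 bases before the transcription start to 30 bases after it. The windows of Atp6v0d1, Atp6v0b and Atp6v1a held the letters CACGTG, which read the same on both strands, and these are shown because they set the paralogue of Atp6v0d2, a V0 subunit that did not pass any test and the catalytic V1 subunit side by side. All 3 genes lie on the minus strand and are written 5′ to 3′ along the gene, with CACGTG in capitals. Atp6v0d1 is at chr8:105566035-105566314, Atp6v0b at chr4:117887300-117887579 and Atp6v1a at chr16:44139230-44139509.
Atp6v0d1: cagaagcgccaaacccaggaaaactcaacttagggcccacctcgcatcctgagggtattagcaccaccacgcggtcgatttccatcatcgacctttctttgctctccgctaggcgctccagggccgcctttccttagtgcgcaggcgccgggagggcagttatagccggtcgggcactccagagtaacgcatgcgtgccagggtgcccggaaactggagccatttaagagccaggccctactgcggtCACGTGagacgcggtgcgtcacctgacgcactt
Atp6v0b: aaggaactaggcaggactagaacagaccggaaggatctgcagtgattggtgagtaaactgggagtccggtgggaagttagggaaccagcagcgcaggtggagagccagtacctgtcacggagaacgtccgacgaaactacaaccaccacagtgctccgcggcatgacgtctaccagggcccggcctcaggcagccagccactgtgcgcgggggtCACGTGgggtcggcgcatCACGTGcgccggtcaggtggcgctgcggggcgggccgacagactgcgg
Atp6v1a: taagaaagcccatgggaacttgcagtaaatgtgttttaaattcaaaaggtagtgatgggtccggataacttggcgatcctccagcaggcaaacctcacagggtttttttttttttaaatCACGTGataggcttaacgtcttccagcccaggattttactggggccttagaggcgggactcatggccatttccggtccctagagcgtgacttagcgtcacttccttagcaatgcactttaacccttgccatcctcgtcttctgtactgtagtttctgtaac
The motif began at position -3 relative to the start in Atp6v0d1, at -131 in Atp6v1a, and at -36 and -18 in Atp6v0b. Of all genes with a window of this length in the table, 7.71% (2083 of 27025) held CACGTG in at least 1 window. Of the V-ATPase genes with a window, 4 of 19 held it, the fourth being Atp6v0e. Counted by window, it was 6.79% (2232 of 32851) of all and 4 of 24 of the V-ATPase genes' windows. A match describes the letters of the window and does not show that a factor binds there.

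Atp6v0d2 was bright on every 5XFAD array and dim on all others. Its log2 values were 7.38, 6.49, 6.49, 6.82 and 7.14 in the 5 5XFAD arrays. In WT they were 3.17, 3.24, 3.21 and 3.16, and in Trem2-/- 3.21, 3.35, 3.48 and 3.26. In the 6 Trem2-/-5XFAD arrays they were 3.41, 4.03, 3.81, 3.08, 3.37 and 3.28. The 5XFAD arrays thus did not overlap with any other group, and the remaining 3 groups shared 1 low range. The differences of Trem2-/- from WT and of Trem2-/-5XFAD from Trem2-/- were smaller than their standard errors. Those errors use a spread pooled over the 4 groups, of which 5XFAD and Trem2-/-5XFAD varied more. The difference of Trem2-/-5XFAD from WT was not fitted. The values 4.03 and 3.81 of Trem2-/-5XFAD lay above every WT and Trem2-/- array.

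The group means of Atp6v0d2 were 3.19 ± 0.04 in WT (SD, n = 4), 3.33 ± 0.12 in Trem2-/- (SD, n = 4), 3.50 ± 0.35 in Trem2-/-5XFAD (SD, n = 6) and 6.86 ± 0.39 in 5XFAD (SD, n = 5), in ascending order. The log2 difference from WT to 5XFAD was 3.67 ± 0.18 (SE). From 5XFAD to Trem2-/-5XFAD it was -3.37 ± 0.17 (SE), and both of these differences share the 5XFAD arrays. Without the transgenes, the difference of Trem2-/- from WT was 0.13 ± 0.19 (SE), and between Trem2-/-5XFAD and Trem2-/- it was 0.17 ± 0.18 (SE). These values are a description with no test, since the gene was chosen for this pattern.

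The size of the step is bounded by the dim end of the arrays. All 4 WT, all 4 Trem2-/- and all 6 Trem2-/-5XFAD arrays had Atp6v0d2 below their own 40th percentile, which lay between 4.16 and 4.34 on the log2 scale, while 0 of the 5 5XFAD arrays did. With values below that percentile raised to it, Atp6v0d2 was at least 6.22-fold higher in 5XFAD than in WT, at least 6.28-fold higher than in Trem2-/- and at least 6.05-fold higher than in Trem2-/-5XFAD. The array with conflicting labels had 3.03, below both the WT and the Trem2-/- arrays.

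**Figure D1:**
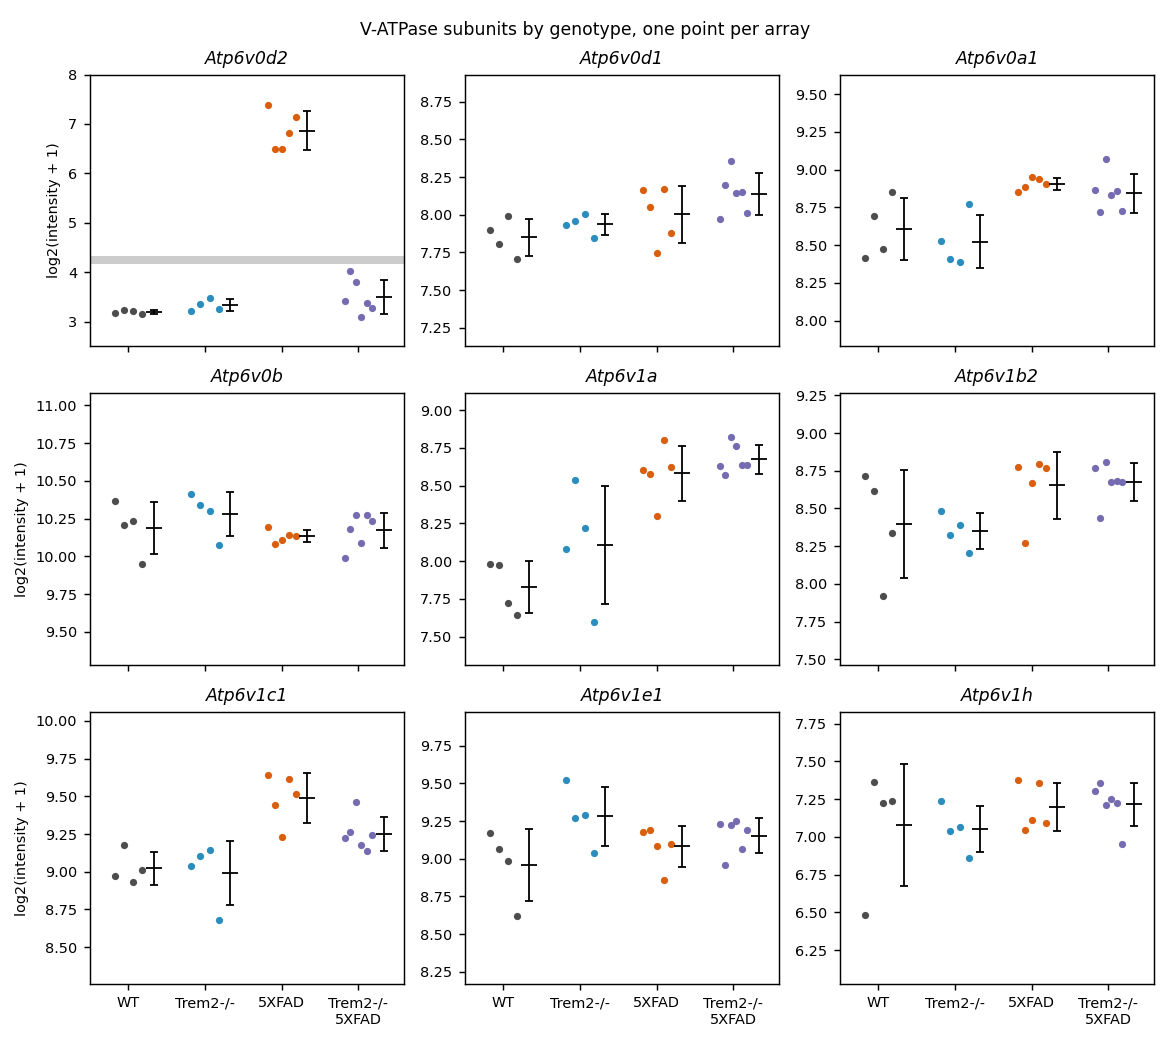
Log2(intensity + 1) of the 9 measured V-ATPase subunits in each of the 19 arrays assigned to a genotype; points are arrays, bars the group mean ± SD, and the grey band in the Atp6v0d2 panel the range of the arrays' 40th percentiles; the vertical axes differ between panels and do not start at 0. Atp6v0d2 lies below the band in the WT, Trem2-/- and Trem2-/-5XFAD arrays and between 6.49 and 7.38 in 5XFAD, while all values of the other 8 genes lie above that band.

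Atp6v0d1, the widely expressed form of the same subunit, had overlapping values in the 4 groups. Its log2 values were 7.90, 7.81, 7.99 and 7.70 in WT and 7.93, 7.96, 8.01 and 7.84 in Trem2-/-. In 5XFAD they were 8.17, 8.05, 7.74, 8.17 and 7.88, and in Trem2-/-5XFAD the lowest was 7.97, the median 8.15 and the highest 8.35. All 4 groups overlapped with at least 1 other, and the 5XFAD values spanned most of the WT range.

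By limma, with Benjamini-Hochberg adjustment over all 12728 genes, Atp6v0d1 differed between 5XFAD and WT by 0.15 ± 0.11 (SE; adjusted p = 0.404). The 95% interval of that difference, -0.07 to 0.38, leaves room for a modest change in either direction. Between Trem2-/-5XFAD and 5XFAD the difference was 0.14 ± 0.10 (SE; adjusted p = 0.479), with an interval of -0.07 to 0.34. Within each array, the log2 value of Atp6v0d2 minus that of Atp6v0d1 moved by 3.52 from WT to 5XFAD and by -3.50 from 5XFAD to Trem2-/-5XFAD. It moved by 0.05 from WT to Trem2-/- and by -0.03 from Trem2-/- to Trem2-/-5XFAD. The SD of this within-array difference was 0.11 in WT, 0.08 in Trem2-/-, 0.36 in 5XFAD and 0.30 in Trem2-/-5XFAD. Since Atp6v0d2 lies below the 40th percentile outside 5XFAD, these values describe the dim end of the array there and are no exact measure of the paralogues' separation.

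**Figure D2:**
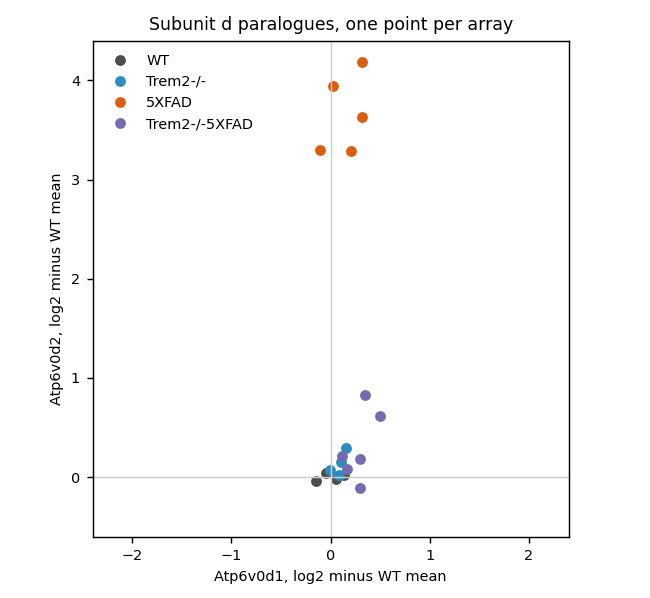
Change from the WT mean in each array, with Atp6v0d1 on the horizontal and Atp6v0d2 on the vertical axis, both in log2 units; each point is 1 array. The 5 5XFAD arrays stand apart along the vertical axis alone, while on the horizontal axis they lie among the other arrays.

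The core subunits were tested across all arrays. Of the 8 members other than Atp6v0d2 that were tested, 2 rose and 0 fell in 5XFAD against WT, at adjusted p under 0.05 by limma; over all tested genes 8.23% rose and 6.77% fell. The members that rose were Atp6v1a and Atp6v1c1, both of the V1 sector. Of the 8, 3 had an unadjusted p under 0.05. The median log2 difference of the 8 was 0.21, with a range of -0.05 to 0.75, beside a median of -0.02 over all tested genes.

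Atp6v1a encodes the A subunit of V1, which holds the catalytic sites. Its log2 values were 7.98, 7.97, 7.72 and 7.64 in WT and 8.60, 8.58, 8.30, 8.80 and 8.62 in 5XFAD, so that every 5XFAD array lay above every WT array. The difference was 0.75 ± 0.15 (SE), or 1.68-fold, with an adjusted p of 0.000955 by limma. In Trem2-/- the values were 8.08, 8.54, 8.22 and 7.60, spread from below WT into the 5XFAD range. In Trem2-/-5XFAD the lowest was 8.57, the median 8.64 and the highest 8.83, close to the range of 5XFAD. No difference by Trem2 was detected for Atp6v1a in the transgenic mice: Trem2-/-5XFAD differed from 5XFAD by 0.10 ± 0.13 (SE; 95% interval -0.18 to 0.37; adjusted p = 0.750).

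Atp6v1c1 encodes the C subunit, a stator arm that leaves the complex when V1 and V0 part. Its log2 values were 8.97, 9.18, 8.93 and 9.01 in WT and 9.64, 9.44, 9.23, 9.62 and 9.52 in 5XFAD, again without overlap. The difference was 0.47 ± 0.11 (SE), or 1.38-fold, with an adjusted p of 0.00647 by limma. In Trem2-/- the values were 9.04, 9.11, 9.14 and 8.68, and in Trem2-/-5XFAD the lowest was 9.14, the median 9.24 and the highest 9.46, from the top of the WT range into that of 5XFAD. Trem2-/-5XFAD differed from 5XFAD by -0.24 ± 0.10 (SE), which did not pass the test (adjusted p = 0.189; 95% interval -0.45 to -0.02). Without the 4 arrays rich in salivary gland transcripts, which leaves 2 WT and 3 5XFAD arrays, the 5XFAD difference of Atp6v1c1 was 0.48 with an adjusted p of 0.0602.

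The remaining members of V1 did not pass the test in any comparison. Atp6v1b2, the B subunit that alternates with A around the V1 head, had group means of 8.395 ± 0.36 in WT, 8.35 ± 0.12 in Trem2-/-, 8.65 ± 0.22 in 5XFAD and 8.68 ± 0.13 in Trem2-/-5XFAD (SD; n = 4, 4, 5 and 6). Its 5XFAD difference of 0.26 ± 0.14 (SE) had an adjusted p of 0.259. Without the 4 arrays rich in salivary gland transcripts it was 0.62 with an adjusted p of 0.0111. Atp6v1e1, a subunit of the peripheral stalks, differed between 5XFAD and WT by 0.12 ± 0.12 (SE; adjusted p = 0.572). Atp6v1h, which links V1 to V0 and restrains idle V1, differed by 0.12 ± 0.15 (SE; adjusted p = 0.666).

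The other V0 members did not pass the test in any comparison as fitted over the 19 arrays. Atp6v0a1 encodes an a subunit, which forms the proton path beside the ring and helps to set where the pump resides. Its values were 8.41, 8.69, 8.47 and 8.85 in WT and 8.85, 8.89, 8.95, 8.94 and 8.91 in 5XFAD, a narrow cluster just above the highest WT array. The difference of 0.30 ± 0.11 (SE) had an adjusted p of 0.0700. It passed with a pseudocount of 16 (adjusted p = 0.0455), with the array of conflicting labels in WT (adjusted p = 0.0436) and without WT 4 (0.38, adjusted p = 0.0262). Atp6v0b, a proteolipid of the ring, had a mean of 10.19 ± 0.17 in WT (SD, n = 4) and 10.13 ± 0.04 in 5XFAD (SD, n = 5), a difference of -0.05 ± 0.10 (SE; adjusted p = 0.796).

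**Figure D3:**
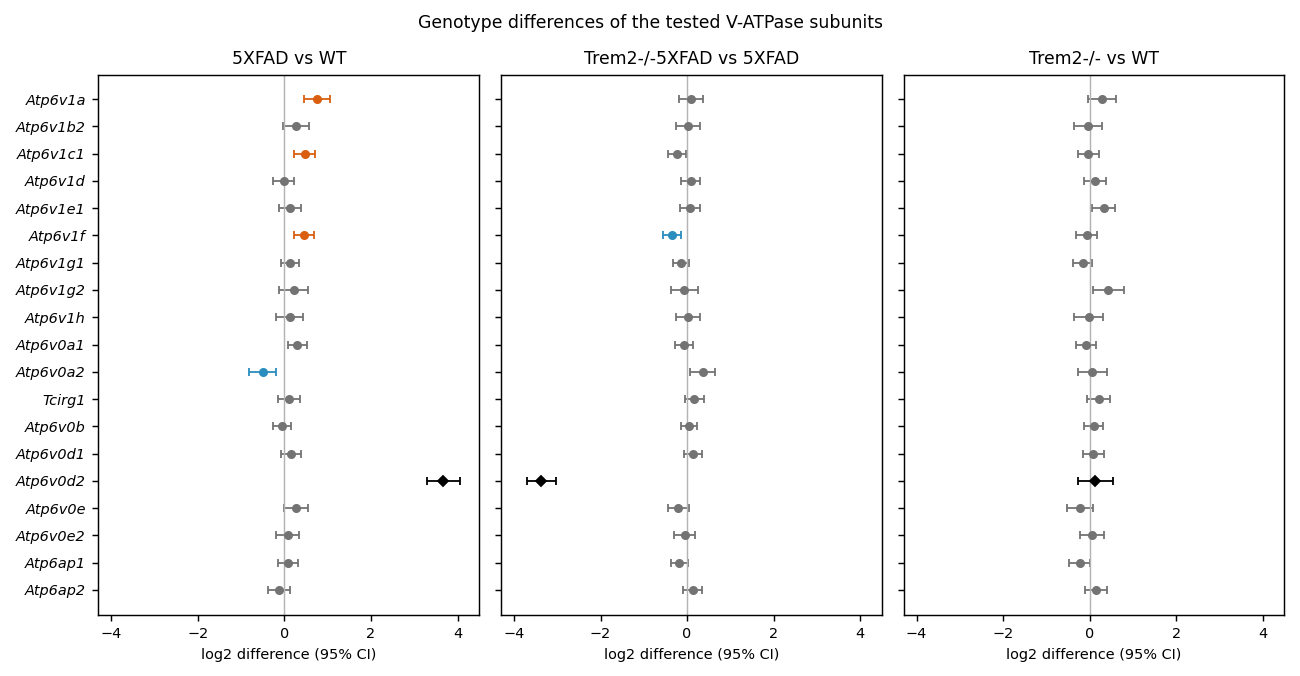
Log2 difference of each tested V-ATPase subunit in 3 comparisons, with 95% intervals; orange marks subunits that rose, blue those that fell, grey those that did not pass the test, and the black diamond is Atp6v0d2, which was not tested. In 5XFAD against WT the tested subunits lie between -0.50 and 0.75, while Atp6v0d2 lies at 3.67, and in Trem2-/-5XFAD against 5XFAD at -3.37.

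With loss of Trem2 in the transgenic mice, no tested member passed the test. In Trem2-/-5XFAD against 5XFAD, 0 rose and 0 fell at adjusted p under 0.05 by limma, while over all tested genes 3.21% rose and 4.46% fell; 1 of the 8, Atp6v1c1, had an unadjusted p under 0.05. Their median log2 difference was 0.03, with a range of -0.24 to 0.14, beside 0.04 over all tested genes. In Trem2-/- against WT, where few genes moved at all (0.385% rose and 0.228% fell), 0 of the 8 passed and 1 had an unadjusted p under 0.05, this being Atp6v1e1 with a difference of 0.32 ± 0.13 (SE; adjusted p = 0.293).

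Between Trem2-/-5XFAD and Trem2-/-, the comparison of the transgenes in mice without Trem2, 1 of the 8 members rose and 0 fell, while over all tested genes 1.63% rose and 0.558% fell. The member was Atp6v1a, with a difference of 0.57 ± 0.14 (SE), 1.48-fold, and an adjusted p of 0.0352 by limma. That call was lost in 8 of the 19 fits that each left out 1 array, namely those without Trem2-/- 1, 3 or 4 or without Trem2-/-5XFAD 1, 3, 4, 5 or 6, and the largest adjusted p was 0.116. With the sex signal as a covariate the difference was 0.69 with an adjusted p of 0.0559. The other members ranged from -0.13 to 0.32 here, with Atp6v0a1 at 0.32 ± 0.11 (SE; adjusted p = 0.127) and Atp6v1b2 at 0.32 ± 0.14 (SE; adjusted p = 0.279). Of the 8 members, 4 had an unadjusted p under 0.05 by limma in this comparison. The median log2 difference of the 8 was 0.23, beside 0.02 over all tested genes.

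The interaction asks whether the step from no transgenes to 5XFAD differed with and without Trem2. For Atp6v0d2 it was -3.50 ± 0.25 (SE), given as a description. Of the 8 tested members 0 passed in either direction by limma and 0 had an unadjusted p under 0.05, while 1.02% of all tested genes were called higher and 1.58% lower. For Atp6v0d1 the interaction was 0.05 with a 95% interval of -0.26 to 0.36, and for Atp6v1a -0.18 with an interval of -0.61 to 0.24.

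The V-ATPase has 15 further subunit and accessory genes on these arrays, of which 10 passed the filter. Atp6v1b1, Atp6v1c2, Atp6v1e2, Atp6v1g3 and Atp6v0a4, isoforms best known from kidney, testis and other epithelia, did not pass, and their group means were at most 4.16. In 5XFAD against WT, 1 of the 10 rose (Atp6v1f) and 1 fell (Atp6v0a2), shares close to the 8.23% and 6.77% of all tested genes, and the median log2 difference was 0.09. In Trem2-/-5XFAD against 5XFAD 0 rose and 1 fell, again Atp6v1f, beside 3.21% and 4.46% of all tested genes. In the other comparisons 0 of the 10 passed by limma, with 1 in each at an unadjusted p under 0.05. Atp6v1g2 differed most of the 10 in Trem2-/- against WT, at 0.43, and in the interaction, at -0.49.

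Atp6v1f encodes the F subunit of the central rotor of V1. Its log2 values were 10.08, 9.65, 9.83 and 9.52 in WT, 9.83, 9.67, 9.58 and 9.75 in Trem2-/-, and 10.32, 10.33, 10.01, 10.23 and 10.26 in 5XFAD. In Trem2-/-5XFAD the lowest was 9.72, the median 9.92 and the highest 10.02. It was thus highest in 5XFAD, with 1 WT array and 1 Trem2-/-5XFAD array inside the 5XFAD range. The 5XFAD difference was 0.46 ± 0.11 (SE), 1.37-fold, with an adjusted p of 0.00698 by limma, and the change from 5XFAD to Trem2-/-5XFAD was -0.34 ± 0.10 (SE) with an adjusted p of 0.0400. A dimmer second probe set of the gene gave 0.03 ± 0.19 (SE) and -0.44 ± 0.17 (SE) for these comparisons, so the probe sets disagreed on the first. The second call was lost in 9 of the 19 fits that each left out 1 array (Trem2-/- 2; 5XFAD 1, 2, 4 or 5; Trem2-/-5XFAD 1, 4, 5 or 6), and its interaction of -0.28 ± 0.16 (SE) had an adjusted p of 0.449.

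Atp6v0a2 encodes an a subunit isoform known from the Golgi and endosomes. Its log2 values were 8.37, 8.42, 8.73 and 8.63 in WT and 7.69, 8.05, 8.46, 8.02 and 7.96 in 5XFAD, where 1 array reached the WT range. The difference was -0.50 ± 0.15 (SE; adjusted p = 0.0272 by limma). A second probe set gave -0.12 ± 0.13 (SE), and the call was lost without WT 3, WT 4, 5XFAD 1 or 5XFAD 5. Tcirg1, the a3 isoform of lysosomes and of the osteoclast ruffled border, differed by 0.10 ± 0.12 (SE; adjusted p = 0.677).

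The other tested subunits were Atp6v1d (rotor), Atp6v1g1 and Atp6v1g2 (peripheral stalk), Atp6v0e and Atp6v0e2 (small V0 subunits) and the accessory proteins Atp6ap1 and Atp6ap2, which assist assembly. Their 5XFAD differences ranged from -0.12 for Atp6ap2 to 0.27 for Atp6v0e, and none passed the test in any comparison. Over all 18 tested subunits other than Atp6v0d2, 3 rose and 1 fell in 5XFAD against WT, and the median was 0.12. By sector, 3 of 9 V1 subunits rose and 0 fell, and of the 7 V0 subunits other than Atp6v0d2, 0 rose and 1 fell, beside 8.23% and 6.77% of all tested genes; the difference between the sectors was not tested. Of the V1 calls, that of Atp6v1f was lost with the mean over its probe sets and that of Atp6v1c1 without the arrays rich in salivary gland transcripts.

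Genes that work with the pump were read from further lists, whose counts stand beside 8.23% higher and 6.77% lower of all tested genes in 5XFAD against WT, and 3.21% higher and 4.46% lower in Trem2-/-5XFAD against 5XFAD. Of 10 genes for V-ATPase assembly and for its coupling between V1 and V0, 0 rose and 1 fell in 5XFAD against WT. This was Rogdi, a relative of the yeast RAVE complex that reassembles the pump, with a log2 difference of -0.79 ± 0.17 (SE; adjusted p = 0.00214 by limma). In Trem2-/-5XFAD against 5XFAD 0 of the 10 passed, and Rogdi differed by 0.16 ± 0.15 (SE; adjusted p = 0.603).

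Of 12 tested genes for lysosomal ion handling, 3 were called higher and 2 lower in 5XFAD against WT (8.23% and 6.77% of all tested genes). Clcn7, the lysosomal chloride-proton exchanger that balances the charge carried by the pump, rose by 0.81 ± 0.16 (SE; adjusted p = 0.00105 by limma). Tpcn2, a cation channel of endolysosomes, rose by 0.49 ± 0.15 (SE; adjusted p = 0.0262). Mcoln2, another such channel, was the third gene called higher. It was below the 40th percentile in all WT, Trem2-/- and Trem2-/-5XFAD arrays and passed the filter through the 5XFAD arrays alone. Its call is included in the count above, but its change is given as a description, with a bound of at least 1.08-fold over WT. The call of Tpcn2 was lost without WT 3, 5XFAD 4 or 5XFAD 5. That of Mcoln2 was lost without WT 1, 3 or 4 or without 5XFAD 1, 2, 3 or 5. Both calls were also lost with the sex signal as a covariate (adjusted p = 0.0556 for Tpcn2 by limma). The same held with the replicate number as a covariate and with only the groups compared in the fit. Tmem175, a lysosomal potassium and proton channel, fell by 0.75 ± 0.14 (SE; adjusted p = 0.000733). Slc9a9, an endosomal sodium-proton exchanger, fell by 0.66 ± 0.13 (SE; adjusted p = 0.000726). In Trem2-/-5XFAD against 5XFAD, 1 rose and 0 fell: Slc9a9 rose by 0.42 ± 0.11 (SE; adjusted p = 0.0231), and its interaction of 0.86 ± 0.17 (SE) also passed (adjusted p = 0.00756). The rise of Slc9a9 was lost without 5XFAD 1 or 3 or without Trem2-/-5XFAD 3, 4 or 5. Clcn7 differed there by -0.06 ± 0.14 (SE; adjusted p = 0.870), and 11 of the 12 genes did not pass.

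The Ragulator and Rag GTPases sit on the lysosome beside the V-ATPase, with which they signal amino acid supply to mTORC1. Of 9 tested, 2 rose and 0 fell in 5XFAD against WT (8.23% and 6.77% of all tested genes), and 0 rose and 2 fell in Trem2-/-5XFAD against 5XFAD (3.21% and 4.46%). Rragd, the gene of RagD, rose by 1.85 ± 0.22 (SE; adjusted p = 3.5e-06 by limma), or 3.61-fold, and fell by 1.03 ± 0.20 (SE; adjusted p = 0.00192) in the second comparison. Lamtor2, a Ragulator scaffold protein, rose by 0.42 ± 0.13 (SE; adjusted p = 0.0250) and fell by 0.52 ± 0.11 (SE; adjusted p = 0.00495). Both comparisons share the 5XFAD arrays. Without the 4 arrays rich in salivary gland transcripts the second comparison gave -0.76 for Rragd (adjusted p = 0.0541) and -0.43 for Lamtor2 (adjusted p = 0.0693). The first then gave 1.61 for Rragd (adjusted p = 0.000831) and 0.19 for Lamtor2 (adjusted p = 0.563). The rise of Lamtor2 was also lost without any 1 of those 4 arrays. The interaction did not pass for Rragd (-1.07 ± 0.31, SE; adjusted p = 0.0696) or for Lamtor2 (adjusted p = 0.207).

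Of the MiT/TFE factors, which bind the CLEAR element, 3 of 4 genes were tested; 0 rose and 2 fell in 5XFAD against WT (8.23% and 6.77% of all tested genes). Tfe3 fell by 0.45 ± 0.12 (SE; adjusted p = 0.0126 by limma) and Tfeb by 0.35 ± 0.11 (SE; adjusted p = 0.0377), of which the first call was lost without WT 2 and the second without WT 1, 2 or 3 or without 5XFAD 1, 2, 3 or 4. Without the 4 arrays rich in salivary gland transcripts the differences were -0.29 for Tfe3 (adjusted p = 0.288) and -0.30 for Tfeb (adjusted p = 0.271). Mitf differed by 0.42 ± 0.19 (SE; adjusted p = 0.148). In Trem2-/-5XFAD against 5XFAD 0 of the 3 passed. Messenger levels of these factors do not measure their activity, which is set largely by their location in the cell.

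Atp6v0d2 is known from osteoclasts, so genes of the osteoclast programme were read as a group. Of 12 genes, 8 passed the filter; Ctsk, Acp5, Calcr and Oscar did not. In 5XFAD against WT 2 of the 8 were called higher and 1 lower (8.23% and 6.77% of all tested genes), with a median of -0.20. Dcstamp, a membrane protein needed for the fusion of osteoclasts, was below the 40th percentile in all 4 WT, all 4 Trem2-/- and 5 of the 6 Trem2-/-5XFAD arrays, so only a bound can be given for its change. It was at least 5.53-fold higher in 5XFAD than in WT, and lower in Trem2-/-5XFAD than in 5XFAD. The measured means were 6.69 in 5XFAD, 3.71 in WT and 3.83 in Trem2-/-5XFAD. Dcstamp passed the filter only because of the 5XFAD arrays, where it is high. Its call is included in the count above, but its change is given as a description. Itgb3, an integrin chain, rose by 0.61 ± 0.17 (SE, adjusted p = 0.0204 by limma). That call was lost without WT 2 and without 5XFAD 1. It was also lost, at 0.31 with an adjusted p of 0.434, without the 4 arrays rich in salivary gland transcripts. Fos, a transcription factor, fell by 0.90 ± 0.15 (SE; adjusted p = 0.000281). Of the 7 tested genes other than Dcstamp, 0 passed between Trem2-/-5XFAD and 5XFAD.

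The genes whose pattern over the 19 arrays was most like that of Atp6v0d2, by Pearson correlation of log2 values among 12727 other tested genes, were Mamdc2 (0.986), Flt1 (0.979), Dcstamp (0.977), Pacsin1 (0.971), Dkk2 (0.968), Sulf2 (0.964), Etl4 (0.961) and Bhlhe40 (0.961). The correlation is a description, since the arrays share their groups and the 5XFAD step dominates it. Mamdc2, the nearest, had group means of 3.52 in WT, 3.46 in Trem2-/-, 8.17 in 5XFAD and 3.87 in Trem2-/-5XFAD. Flt1, a receptor of vascular endothelial growth factor, had 4.12, 3.87, 7.07 and 4.10 in the same order of groups. Bhlhe40, a transcriptional repressor, had 4.19, 4.01, 8.47 and 4.71. In Trem2-/-5XFAD all 3 were far nearer to their WT than to their 5XFAD mean. This follows from their choice by correlation with Atp6v0d2 and is no separate result.

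The most opposite patterns were those of Pdlim4 (-0.959), Mtss1 (-0.952) and Fgd2 (-0.947). Among the V-ATPase members the nearest to Atp6v0d2 was Atp6v1c1 with r = 0.764, which ranked 425 of the 12727 genes. Atp6v0a1 followed with 0.505 and Atp6v1a with 0.408. The paralogue Atp6v0d1 had 0.113 and ranked 4360, and Atp6v0b had the lowest value of the members, -0.234.

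**Figure D4:**
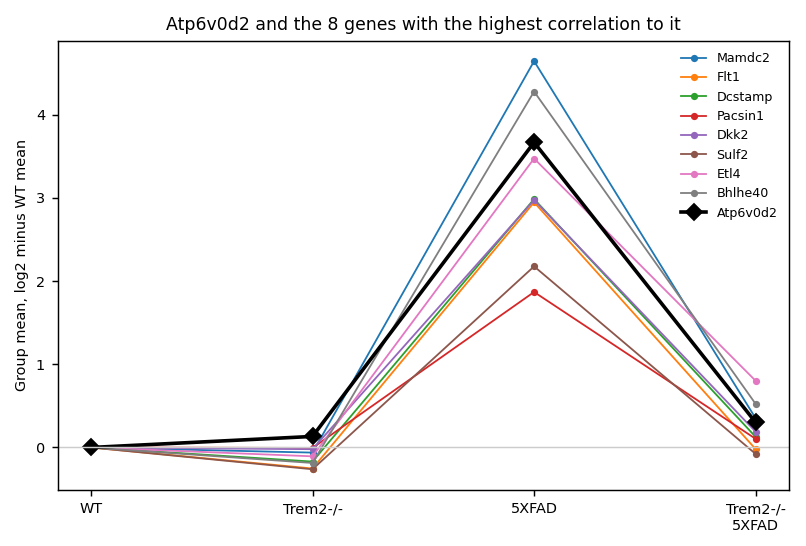
Group mean minus the WT mean, in log2 units, of Atp6v0d2 and of the 8 genes whose values over 19 arrays correlated most with it. All 9 genes are high in 5XFAD, and in Trem2-/-5XFAD they lie far nearer to the WT than to the 5XFAD mean. Etl4 and Bhlhe40 lie the farthest above the WT mean there among the 9. The 8 genes were chosen by that correlation, so the shared pattern follows from the choice.

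Transcripts of other cell types also differed between the groups. In bulk samples fewer cells of a type and less RNA per cell cannot be told apart. Border macrophage markers (8 of 8 measured, among them Mrc1 and Cd163, none below the 40th percentile) had a summed intensity of 503 to 880 in 5XFAD, against 1107 to 1822 in WT, 1225 to 2451 in Trem2-/- and 1088 to 1944 in Trem2-/-5XFAD. Astrocyte markers (8 of 8 measured) summed to 457 to 705 in 5XFAD, 469 to 495 in WT, 287 to 433 in Trem2-/- and 360 to 446 in Trem2-/-5XFAD, with 2 of the 8 below the 40th percentile in every array of each group. Their members did not move one way: in 5XFAD against WT Gfap rose by 2.16 ± 0.18 (SE; adjusted p = 2.86e-08 by limma) and Slc1a3 fell by 0.73 ± 0.17 (SE; adjusted p = 0.00457). Microglial markers summed to 18717 to 20283 in 5XFAD and to 23766 to 29673 elsewhere. The part of these shifts in the values of the V-ATPase genes was not tested. Neutrophil markers (8 of 8 measured) summed to 104 to 264 in WT, 285 to 2754 in Trem2-/-, 163 to 1288 in 5XFAD and 366 to 4881 in Trem2-/-5XFAD.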

How the data were processed

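The authors deposited 1 table of array intensities, on a linear scale, with 1 column per array; the background correction, the normalization and the summary of probes were not given in the sources used here. Values were converted to log2(intensity + 1) from the deposited table. Column medians lay between 25.7 and 28.6 and 75th percentiles between 101 and 112, so the columns were already on 1 scale; precision is limited by the number of arrays. Of 24679 probe sets, the platform annotation gave 21354 to 1 gene symbol, 1275 to several and 2050 to none, and the latter kinds were left out. Levels of different probe sets were not read as relative amounts of transcript. The value of Atp6v0d2 minus Atp6v0d1 was used for its change between groups, and a gene's probe set was chosen by its mean.

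Groups were compared with limma 3.58.1 (R 4.3.3) in 1 model over the 19 arrays with settled labels, with Benjamini-Hochberg adjustment over 12728 genes, called at adjusted p under 0.05. The fit was tested on simulated data. Nothing states whether arrays hold separate animals. The p-values set differences against the spread between these arrays, and how much of that spread is technical is not known. Xist signal differed within WT, Trem2-/- and 5XFAD, so the arrays of these groups did not all share the same source. The members and the gene lists were chosen with earlier results of these data known, and Atp6v0d2 was not tested. Genes were named by a rule: all members and further subunits, the called genes of each related list (at most 4, by smallest p), any gene on which a count of 5 or fewer rests, and the 8 genes most and the 3 least like Atp6v0d2. Promoter sequences are RefSeq's. Alternatives changed the pseudocount, filter, normalization, arrays in the fit, covariates, variance model and choice of probe set.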

Additional observations from a re-analysis of the deposited data

Results flagged for a closer look

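In each group of 4 to 6 arrays, the highest and the lowest array of every measured member was compared with the rest by the ratio of its gap to the group's range, and 36 groups were checked. A single array stood apart from the others of its group in 4 of them; chance flags about 1 in 20 groups. Atp6v1h, which restrains idle V1, was 6.48 in WT 1, against 7.23 in the nearest WT array, and 6.95 in Trem2-/-5XFAD 6, against 7.21. Without WT 1 the 5XFAD difference of Atp6v1h was -0.08 with an adjusted p of 0.746 by limma, where it was 0.12 with all arrays. Atp6v1b2, the B subunit of the V1 head, was 8.27 in 5XFAD 2, against 8.67 in the nearest 5XFAD array, and 8.44 in Trem2-/-5XFAD 2, against 8.68. None of the 4 groups of Atp6v0d2 or of Atp6v0d1 had such an array.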

How the results depend on the processing

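With a pseudocount of 16 the differences of Atp6v0d2 shrank to 2.45 (5XFAD against WT), -2.32 (Trem2-/-5XFAD against 5XFAD) and -2.37 (interaction), as its dim groups lie near that pseudocount; leaving out each array in turn gave 3.54 to 3.76, -3.47 to -3.24 and -3.61 to -3.37. The count of 2 other members called in 5XFAD against WT was 2 to 3 when each array was left out. Without the 4 salivary arrays its genes changed: Atp6v1c1 left it (adjusted p = 0.0602 by limma) and Atp6v1b2 entered it (adjusted p = 0.0111). The 1 member called in Trem2-/-5XFAD against Trem2-/-, Atp6v1a, became 0 with arrays centred on the median, with only the groups of the contrast, with the replicate block, with the sex covariate and without the 2 arrays richest in neutrophil transcripts, and 0 to 1 when each array was left out. Of the further subunits, the 2 calls in 5XFAD against WT became 1 with only these groups, with the replicate block and without the 4 salivary arrays, 0 with the mean over probe sets, and 1 to 2 when each array was left out. The 1 call in Trem2-/-5XFAD against 5XFAD became 0 with quantile normalization, the replicate block, the sex covariate, and without the salivary or the neutrophil arrays, and 0 to 2 when each array was left out. The causes were not tested. Over all tested genes, same-numbered arrays had little deviation in common (25 pairs, median r 0.01, and 5 of 19 arrays matched their own number best). Some contaminating transcripts did go by number: salivary gland transcripts were high in arrays 1 and 2 of both WT and 5XFAD. Neutrophil transcripts were highest in array 1 of both Trem2-/- and Trem2-/-5XFAD. Whether same-numbered arrays were prepared together was not tested. With the replicate block Atp6v1a differed by 0.58 between Trem2-/-5XFAD and Trem2-/- (adjusted p = 0.107 by limma). No subunit or named list gene reversed its direction on a call in the settings run. The settings without neutrophil arrays and those for further subunits and list genes were chosen after seeing the data. The alternative of each gene's other probe sets was not run for the members, which have 1 each.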
